A study of Mus musculus with 27 samples.

Results

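Chemokine receptor transcripts were followed in CD8 T cells that differ in let-7 miRNA activity. The 9 receptor genes Ccr7, Ccr9, Cxcr3, Ccr2, Cxcr6, Cx3cr1, Ccr4, Ccr8 and Cxcr4 were listed by name and taken by symbol from the 35275 genes measured. The cells came from P14+ mice, whose T cells carry 1 T cell receptor specific for a viral peptide, on a Rag2-/- background, and were WT, lin28Tg or let-7Tg. Lin28 blocks the maturation of let-7 miRNAs, so lin28Tg cells serve as a let-7-deficient model, and let-7Tg cells carry a let-7g transgene at the Col1a1 locus. The let-7 transgene is induced by doxycycline, and mice of both sexes, 6 to 10 weeks old, received it at 2 mg/mL in the drinking water for 4 days. Each genotype was measured at 3 stages, with 3 libraries for each of the 9 groups and 27 in all. Naive cells were not cultured, and the labels give lymph nodes as the tissue of every sample. 12 h activated cells were stimulated with anti-CD3 at 2 µg/mL and anti-CD28 at 5 µg/mL. CTLs were grown for 5 days with irradiated splenocytes and anti-CD3 at 2 µg/mL, with IL-2 at 100 U/mL from 48 h. The cultures held doxycycline at 2 µg/mL. Each sample was a population of cells from the culture or tissue, in which fewer cells of a type and less RNA per cell cannot be told apart, and let-7 itself was not measured here.

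Chemokine receptors are G protein-coupled receptors that steer lymphocytes along gradients of small secreted proteins, the chemokines. CCR7, the receptor for CCL19 and CCL21, brings naive T cells into lymph nodes and is normally lost from effector cells, whereas CXCR3, CCR2, CXCR6 and CX3CR1 guide effector cells into inflamed tissue. Let-7 miRNAs bind partly complementary sites in the 3′ UTRs of mRNAs through their seed, bases 2 to 8, and lower the mRNA or its translation.

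The let-7 seed and the stretches of the receptors' 3′ UTRs that match it are shown because let-7 miRNAs pair through the seed. Sequences of mature miRNAs come from RefSeq on GRCm38.p6. Capitals mark the seed, which is the same in 10 of the 11 let-7 family RNAs listed there (let-7j differs in its last seed base). The let-7g of the transgene and let-7a read:
mmu-let-7g-5p: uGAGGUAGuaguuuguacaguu
mmu-let-7a-5p: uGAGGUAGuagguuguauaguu
The 3′ UTR of each gene (GENCODE M21, GRCm38) was searched on the sense strand for CTACCTC, the complement of the seed, and for TACCTCA, which pairs with seed bases 2 to 7 and has an A opposite base 1. CTACCTCA holds both. Ccr7, Ccr9 and Cx3cr1 had a match, and the other 6 genes had none. Capitals mark the match:
Ccr7, chr11:99144779-99144806, minus strand: catcccacttataaCTACCTCAaccaaa
Ccr9, chr9:123781276-123781303, plus strand: tctgaggctccctgCTACCTCccctttc
Cx3cr1, chr9:120050210-120050237, minus strand: tccattctagcatagTACCTCAgcaagg
Ccr7 was the receptor of the 9 with the full 8-base match, 166 bases into a 3′ UTR of 762 bases. Among 20755 genes with a 3′ UTR of at least 30 bases, 3.04% held CTACCTCA, 8.93% held CTACCTC and 14.8% held either 7-base match. The match of Ccr9 lay at base 926 of 3966, that of Cx3cr1 at base 1048 of 2587, and the annotated 3′ UTR of Ccr8 has 24 bases. A match describes letters in these windows and not binding.

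Library totals ran from 13862706 to 23591069 reads. The labels matched the transgenes: Lin28b stood at 9.94 to 67.9 FPKM (fragments per kilobase of gene length after division by library depth) in the 9 lin28Tg libraries and at no more than 0.059 in the others, and Col1a1, part of which is read where the let-7 transgene sits, at 9.06 to 62.8 FPKM in the let-7Tg libraries and at no more than 4.93 in the others. The sum of the 8 T cell markers was lower in every lin28Tg library than in every other library of its stage. It stood at 3600.7 to 4007.3 against 4171.3 to 4760.0 FPKM in naive cells, 1339.1 to 1551.7 against 1569.8 to 1916.3 at 12 h and 2012.5 to 2301.4 against 2333.4 to 2869.3 in CTLs. In naive cells 4 of the 8 were called lower in lin28Tg than in WT and 0 higher, beside 14.5% and 19.4% of all genes. Between lin28Tg and let-7Tg CTLs 4 were called lower and 1 higher, beside 10.6% and 10.7%. The naive lin28Tg libraries stood apart in markers of other cells. Of 10 myeloid markers 9 were tested there and all 9 were called higher than in WT, none was under 0.2 FPKM throughout, and they summed to 183.3, 829.9 and 468.6 FPKM, against 40.8 to 78.8 in WT and 34.4 to 76.4 in let-7Tg naive cells. Dendritic cell markers summed to 41.1 to 95.8 FPKM there against at most 30.6 in the other naive libraries, NK cell markers to 118.3 to 415.5 against at most 83.8, CD4 T cell markers to 24.1 to 83.5 against at most 23.7, and B cell markers to 30.3 to 40.5 against at most 21.6. Erythroid markers summed to 494.1 to 1994.1 FPKM in naive lin28Tg cells, 152.7 to 291.7 in WT and 1.92 to 38.7 in let-7Tg.

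The make-up of the receptor transcripts differed between stages in every genotype, and in CTLs it differed by genotype while the ranges of the sum overlapped. Between stages 51 of 81 receptor differences were called, beside 62.2% to 73.7% of all genes, so receptors did not change more often than other genes. Summed over the 9 genes, receptor transcripts stood at 508.1 ± 32.4 FPKM in WT naive cells, 598.5 ± 13.8 in lin28Tg and 439.3 ± 96.4 in let-7Tg (SD, n = 3 here and below). At 12 h the sums were 322.5 ± 61.7, 472.3 ± 45.2 and 214.6 ± 66.9 FPKM. In CTLs they were 191.0 ± 11.7, 202.4 ± 6.16 and 204.7 ± 16.2 FPKM. FPKM are per length, so levels of different genes can be set side by side. Ccr7 gave the largest share of the sum in all 3 naive groups (39.1% to 48.0%), with its range overlapping that of Cxcr4 in let-7Tg naive cells, and in all 3 groups at 12 h (75.3% to 84.7%). In WT CTLs Cxcr4, Cxcr6, Ccr2 and Ccr7 shared the sum, at 24.3%, 24.2%, 19.2% and 19.1%, and each of these 4 levels overlapped its neighbour in that order. In lin28Tg CTLs Ccr2 took 57.8% and Cxcr6 30.1%, and Ccr7 took 1.26%. In let-7Tg CTLs Cxcr4 took 39.4% and Ccr7 26.2%, and Ccr2 took 2.96%.

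**Figure D1:**
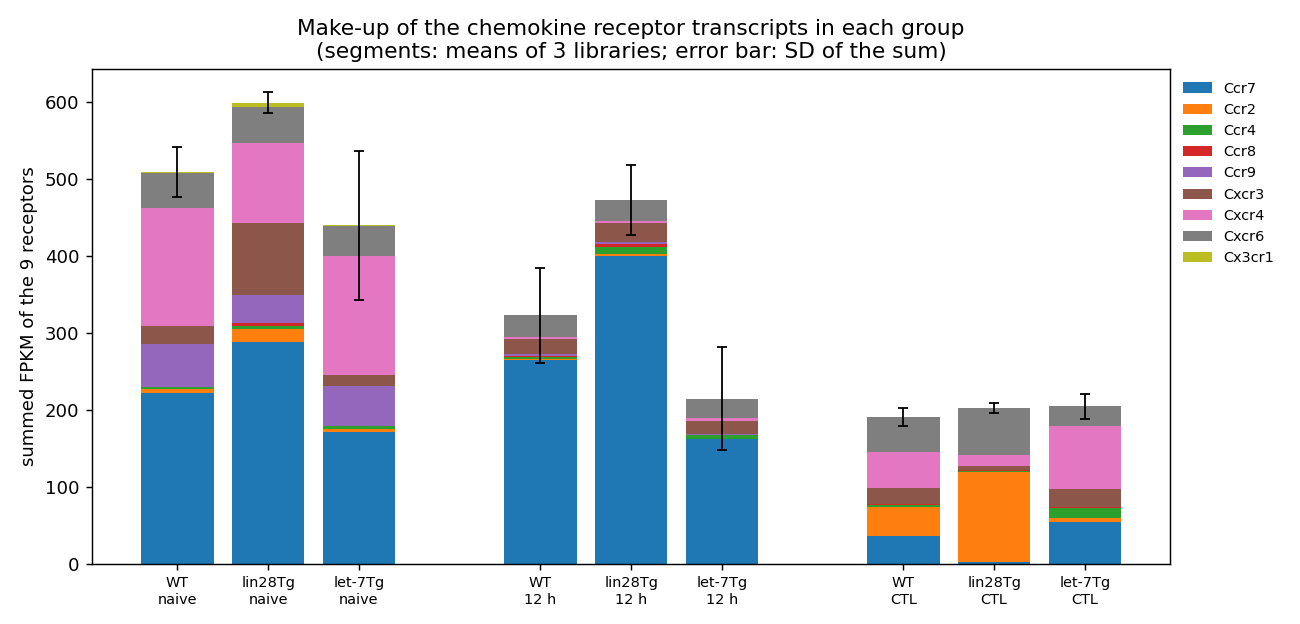
Bars show the summed FPKM of the 9 receptors in each group (y axis), split into the means of the receptors over 3 libraries, with the SD of the sum as error bar. The CTL sums of 191.0, 202.4 and 204.7 FPKM are close, while Ccr2 fills most of the lin28Tg bar and Cxcr4 and Ccr7 most of the let-7Tg bar.

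**Figure D2:**
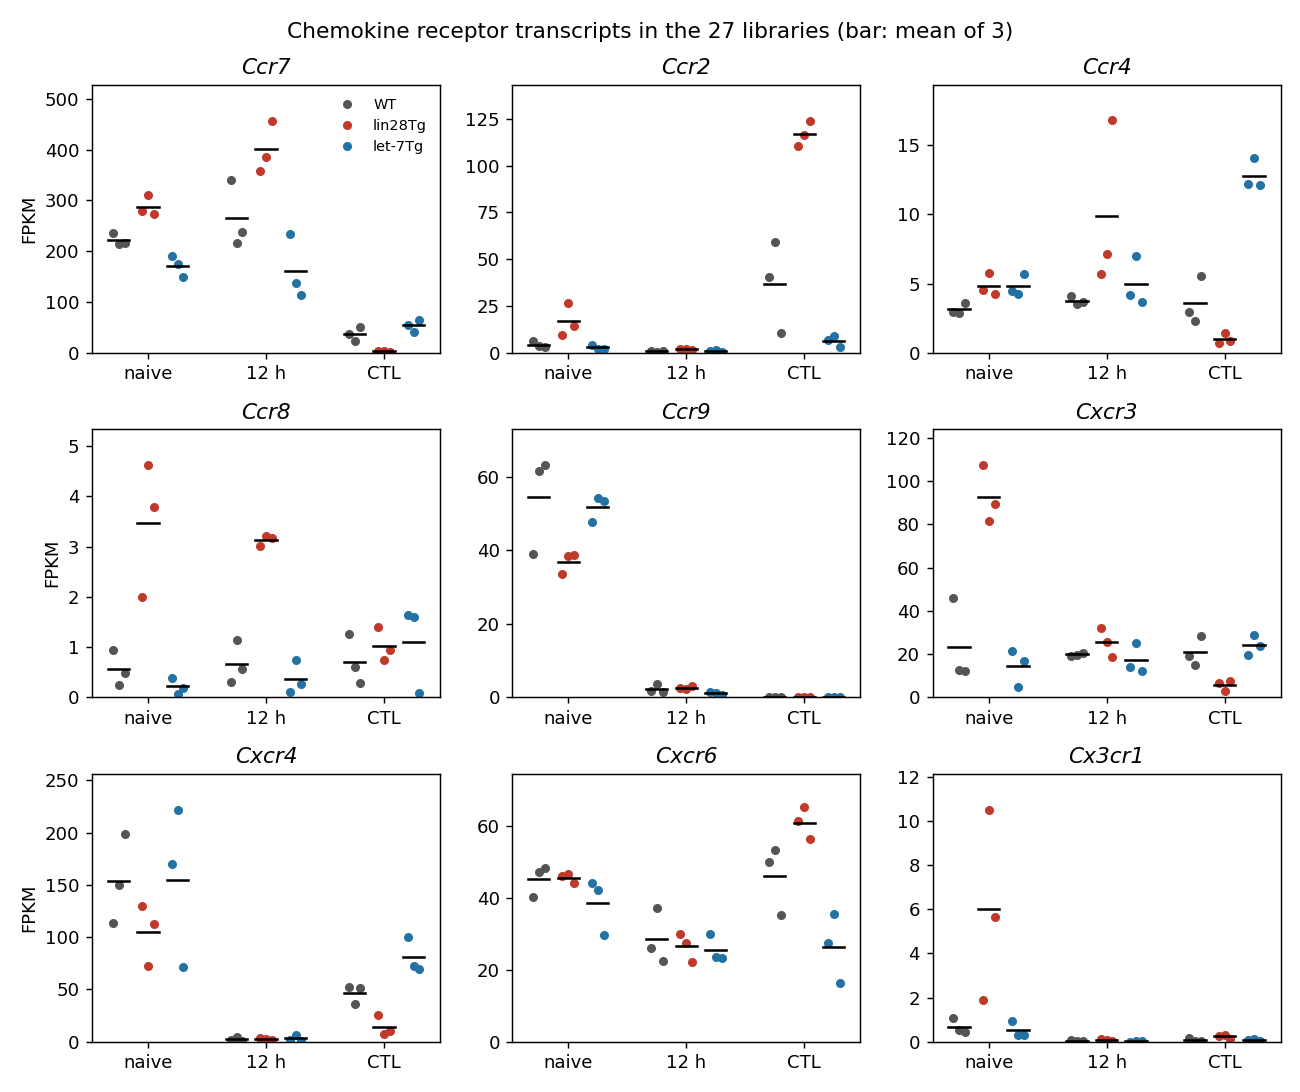
Each panel plots the FPKM of a receptor (y axis, from 0) in the 27 libraries by stage and genotype, with a bar at the mean of 3. Ccr7 is highest in lin28Tg cells before CTL differentiation and lowest in lin28Tg CTLs, at 1.98 to 3.02 FPKM, where Ccr2 reaches 110.5 to 124.0.

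The first question was whether receptors already differ between genotypes in naive cells, before antigen stimulation. In lin28Tg naive cells 6 of the 9 receptors were higher than in WT (Ccr7, Cxcr3, Ccr2, Cx3cr1, Ccr4 and Ccr8) and Ccr9 was lower. Of the 13262 genes tested in naive cells, 33.9% were called between lin28Tg and WT, 19.4% as higher and 14.5% as lower, by limma at an adjusted p under 0.05. The means of Ccr2, Cxcr3, Ccr8 and Cx3cr1 were 3.88-, 3.96-, 6.23- and 9.05-fold those in WT, and the means of Ccr7 and Ccr4 1.30- and 1.54-fold those in WT. Single libraries weighed on 3 of these folds: without WT library 1 that of Cxcr3 was 7.55 and that of Ccr8 9.43, and without lin28Tg library 2 that of Cx3cr1 was 5.67.

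Ccr7, the lymph node homing receptor, stood at 235.9, 214.5 and 215.6 FPKM in the WT naive libraries, 279.1, 309.9 and 273.6 in lin28Tg and 190.6, 175.5 and 148.7 in let-7Tg. The genotypes did not overlap and were ordered lin28Tg, WT, let-7Tg. The log2 difference between lin28Tg and WT was 0.32 (SE 0.10, adjusted p = 0.034). It was 0.74 for lin28Tg over let-7Tg (adjusted p = 0.000495) and -0.41 for let-7Tg against WT (95% interval -0.64 to -0.19, adjusted p = 0.102). The call between lin28Tg and WT was lost without WT library 1, 2 or 3 or without lin28Tg library 1 or 2 (adjusted p = 0.0524 to 0.134), and in a fit over all 27 libraries (0.365). Ccr9, the receptor for CCL25 that guides cells to the small intestine and thymus, stood at 39.1, 61.7 and 63.2 FPKM in WT, 33.7, 38.4 and 38.7 in lin28Tg and 47.7, 54.4 and 53.4 in let-7Tg. All lin28Tg libraries were below all others, by -0.58 against WT (SE 0.16, adjusted p = 0.0188) and -0.50 against let-7Tg (adjusted p = 0.0277). Ccr7 differed in the opposite direction. The T cell markers, whose sum was lower in the same libraries, had a median log2 difference of -0.35 against WT and -0.47 against let-7Tg, and their part in the result was not tested. The call of Ccr9 against WT was lost without WT library 2 or 3 (0.0746 and 0.0724), that against let-7Tg without any lin28Tg library or without let-7Tg library 2 or 3 (0.0522 to 0.0785), and neither passed in the 27-library fit (0.104 and 0.169).

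Cxcr3, the receptor for the interferon-induced CXCL9 and CXCL10, stood at 45.7, 12.4 and 12.2 FPKM in WT naive cells, 107.4, 81.5 and 89.4 in lin28Tg and 21.2, 4.77 and 16.9 in let-7Tg. Every lin28Tg library lay above every other one, and WT library 1, which also had the highest myeloid marker sum of the WT naive libraries (78.8 FPKM), lay well above the other WT libraries. The log2 difference was 2.19 against WT (SE 0.57, adjusted p = 0.0164) and 2.87 against let-7Tg (adjusted p = 0.00325), and the first was not called without WT library 2 (0.0648) or 3 (0.0643). Ccr2, the receptor for the monocyte chemoattractant CCL2, stood at 6.46, 3.67 and 2.84 FPKM in WT, 9.44, 26.3 and 14.5 in lin28Tg and 4.36, 1.93 and 2.06 in let-7Tg. Its log2 difference was 1.74 against WT (SE 0.40, adjusted p = 0.00868) and 2.34 against let-7Tg (adjusted p = 0.00143). Cx3cr1, the fractalkine receptor found on monocytes and on terminal effector T cells, stood at 1.05, 0.514 and 0.432 FPKM in WT, 1.90, 10.5 and 5.65 in lin28Tg and 0.937, 0.310 and 0.314 in let-7Tg, a log2 difference of 2.23 against WT (SE 0.47, adjusted p = 0.00647). Ccr8, a receptor for CCL1 and CCL8, stood at 0.933, 0.245 and 0.490 FPKM in WT, 2.00, 4.62 and 3.78 in lin28Tg and 0.391, 0.0616 and 0.187 in let-7Tg. Its log2 difference was 1.86 against WT (SE 0.31, adjusted p = 0.00219) and 2.42 against let-7Tg (adjusted p = 0.000339), on 1 to 17 reads per library outside lin28Tg.

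Ccr2, Cx3cr1 and Ccr8 were all highest in lin28Tg library 2 and lowest of the lin28Tg libraries in library 1, the order of the summed myeloid markers (829.9 and 183.3 FPKM), whereas Cxcr3 was highest in lin28Tg library 1. Ccr7 and Ccr4 were also highest in lin28Tg library 2 (309.9 and 5.75 FPKM), and lowest of the lin28Tg libraries in library 3. Without library 2 neither passed against WT by limma (adjusted p = 0.134 and 0.128). The part of the other cells in the results of all these receptors was not tested. Ccr2, Cx3cr1, Ccr8 and Cxcr3 stayed called against WT without lin28Tg library 2 (adjusted p = 0.0286, 0.0171, 0.00859 and 0.0367 by limma). The lin28Tg libraries kept had myeloid marker sums of 183.3 and 468.6 FPKM, above the WT maximum of 78.8. This removal therefore could not separate the part of the other cells.

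**Figure D3:**
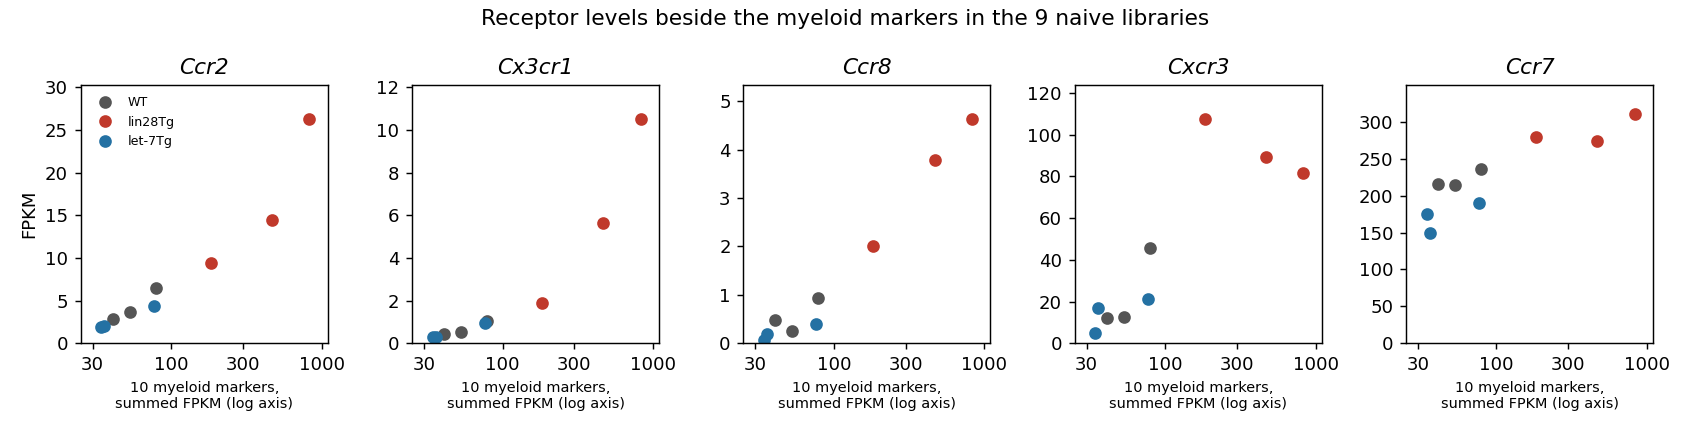
Each point is a naive library, with the summed FPKM of the 10 myeloid markers on the x axis (log scale) and the FPKM of a receptor on the y axis (from 0). Ccr2, Cx3cr1, Ccr8 and Ccr7 are highest in the lin28Tg library with the highest marker sum (829.9), while Cxcr3 is highest in the lin28Tg library with the lowest (183.3).

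Ccr4, the receptor for CCL17 and CCL22 on skin-homing T cells, stood at 2.96, 2.87 and 3.61 FPKM in WT naive cells, 4.53, 5.75 and 4.25 in lin28Tg and 4.49, 4.24 and 5.67 in let-7Tg. Both transgenic groups lay above WT by 0.50 on the log2 scale, with an adjusted p of 0.0304 for lin28Tg and 0.173 for let-7Tg. The lin28Tg call was lost without WT library 1 or 2 or lin28Tg library 1 or 2 (0.0619 to 0.128) and in the 27-library fit (0.228). Cxcr4, the receptor for CXCL12 that holds cells in bone marrow and lymphoid tissue, ranged from 71.7 to 221.8 FPKM over the 9 naive libraries with overlapping genotypes (adjusted p = 0.266 for lin28Tg against WT). Its log2 difference between lin28Tg and let-7Tg was -0.47 (adjusted p = 0.367), and it passed without let-7Tg library 3 (0.0316). Cxcr6, the receptor for CXCL16, ranged from 29.7 to 48.4 FPKM, and its log2 difference between lin28Tg and WT was -0.04 (95% interval -0.36 to 0.29). Between let-7Tg and WT none of the 9 receptors passed by limma, where 0.739% of all genes did. Ccr7 and Ccr4 were under an unadjusted 0.05 in that comparison, and limma-voom on the recovered reads called none either. Between lin28Tg and let-7Tg 6 of 9 passed, 5 of them higher in lin28Tg (Ccr7, Ccr2, Ccr8, Cxcr3 and Cx3cr1), beside 44.3% of all genes, 22.7% higher.

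After 12 h of activation the differences between genotypes were fewer. Against WT, lin28Tg cells were higher in Ccr8 and Ccr2, 2 of the 8 receptors tested, beside 8.32% of the 12231 genes tested, 5.86% higher. Against let-7Tg they were higher in Ccr7, Ccr8, Ccr2 and Ccr9, 4 of 8, beside 30.1% of all genes, 16.5% higher. No receptor passed between let-7Tg and WT by limma, where 2.94% of genes did. Ccr7 and Ccr9 were under an unadjusted 0.05 there, and limma-voom called none. Cx3cr1 was left out of the tests at this stage, with 0 to 6 reads per library. The let-7Tg library without a read allows up to 0.0549 FPKM, counting error only.

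Ccr7 stood at 340.4, 216.1 and 237.2 FPKM in WT cells at 12 h, 357.5, 386.2 and 456.5 in lin28Tg and 233.8, 137.9 and 113.2 in let-7Tg. All lin28Tg libraries lay above all others, and WT and let-7Tg overlapped through let-7Tg library 1. The log2 difference was 1.39 between lin28Tg and let-7Tg (SE 0.26, adjusted p = 0.00412), 0.59 between lin28Tg and WT (95% interval 0.01 to 1.18, adjusted p = 0.199) and -0.80 between let-7Tg and WT (95% interval -1.38 to -0.21, adjusted p = 0.119). Without let-7Tg library 1 this last difference passed (adjusted p = 0.0214). Ccr8 stood at 3.02, 3.22 and 3.18 FPKM in lin28Tg cells against 0.307, 1.14 and 0.552 in WT and 0.109, 0.737 and 0.268 in let-7Tg, a log2 difference of 1.69 against WT (SE 0.28, adjusted p = 0.00679). The lin28Tg libraries were close to each other and apart from the rest, and markers of other cells were higher there too. Of 9 myeloid markers tested at 12 h, 4 were called higher than in WT and 7 higher than in let-7Tg (median log2 differences 0.81 and 1.16), and the 10 summed to 13.8 to 23.2 FPKM against 7.21 to 14.6 in the other libraries of this stage. Dendritic cell markers summed to 8.83 to 11.6 FPKM against 1.67 to 5.53, without overlap. The part of those cells in the receptor differences of this stage, those of Ccr7, Ccr8 and Ccr2 included, was not tested. Ccr2 had its lowest mean of the 3 stages here in every genotype, at 2.10, 2.21 and 1.24 FPKM in lin28Tg, 0.863, 0.574 and 0.649 in WT and 0.928, 1.21 and 0.474 in let-7Tg.

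The log2 difference of Ccr2 at 12 h was 0.94 against WT (SE 0.23, adjusted p = 0.0356) and 0.81 against let-7Tg (adjusted p = 0.0270). The first was lost without any WT library or lin28Tg library 1 or 2 (0.0686 to 0.149), and the second without lin28Tg library 1 or 2 or let-7Tg library 3 (0.0788 to 0.102), and neither passed in the fit over 27 libraries (0.236 and 0.196). Ccr9 stood at 2.44, 2.14 and 3.02 FPKM in lin28Tg and 1.52, 1.09 and 0.485 in let-7Tg, with WT at 1.55, 3.56 and 1.43 across both. Its log2 difference between lin28Tg and let-7Tg was 1.05 (SE 0.32, adjusted p = 0.0325), lost without any lin28Tg library or let-7Tg library 2 or 3 (0.0578 to 0.104). Ccr4 reached 16.8 FPKM in lin28Tg library 3 against 5.69 and 7.12 in the other lin28Tg libraries and 3.53 to 4.10 in WT (log2 difference 1.11, adjusted p = 0.0765). It passed without lin28Tg library 1 (adjusted p = 0.0374) and in the fit over 27 libraries (0.0194). Cxcr3 (12.3 to 32.0 FPKM), Cxcr4 (0.550 to 6.78) and Cxcr6 (22.2 to 37.3) overlapped between the genotypes. For Cxcr3 the log2 difference between lin28Tg and let-7Tg was 0.62 (adjusted p = 0.0705), and it passed without lin28Tg library 3 (0.0358) or let-7Tg library 2 (0.00942).

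CTLs are the effector stage, in which receptors for inflamed tissue usually replace the lymph node program. Compared with WT, lin28Tg CTLs were lower in Ccr7, Cxcr3, Ccr4 and Cxcr4, 4 of the 8 receptors tested, and none was called higher, beside 4.18% of the 13016 genes tested (1.96% higher and 2.22% lower). let-7Tg CTLs were higher than WT in Ccr4, 1 of 8, beside 0.945% of genes, 0.63% higher. These counts are from the fit without the replicate block. With the block and in the fit over 27 libraries, Ccr2 was also called higher in lin28Tg than in WT (adjusted p = 0.0167 and 0.00643). Ccr2 (0.0239 and 0.00454) and Cxcr6 (0.0217 and 0.0193) were then also called lower in let-7Tg than in WT. Between lin28Tg and let-7Tg CTLs 6 of 8 passed, with Ccr7, Cxcr3, Ccr4 and Cxcr4 lower and Ccr2 and Cxcr6 higher in lin28Tg, beside 21.3% of genes, 10.6% lower and 10.7% higher. The median of the absolute log2 difference between lin28Tg and let-7Tg CTLs was 2.27 over the 8 receptors and 0.25 over all genes.

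Ccr7 stood at 37.6, 22.2 and 49.7 FPKM in WT CTLs, 3.02, 2.69 and 1.98 in lin28Tg and 54.7, 40.9 and 65.1 in let-7Tg. All lin28Tg libraries were far below the rest, with a mean of 2.56 ± 0.530 FPKM, and WT and let-7Tg overlapped. The log2 difference was -3.48 between lin28Tg and WT (SE 0.30, adjusted p = 0.00128), -4.03 between lin28Tg and let-7Tg (adjusted p = 0.000131) and 0.55 between let-7Tg and WT (95% interval -0.13 to 1.23, adjusted p = 0.542). Cxcr3 stood at 19.2, 14.8 and 28.5 FPKM in WT, 6.33, 2.71 and 7.52 in lin28Tg and 19.5, 28.6 and 23.8 in let-7Tg, so that lin28Tg CTLs, unlike naive lin28Tg cells, were the lowest group. Its log2 difference was -1.82 against WT (SE 0.35, adjusted p = 0.0262) and -2.00 against let-7Tg (adjusted p = 0.00444), and the first was lost without WT library 1 (0.0848), WT library 3 (0.0638) or lin28Tg library 2 (0.0567).

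Ccr4 and Cxcr4 were ordered lin28Tg, WT, let-7Tg from the lowest to the highest in CTLs, without overlap between the 3 genotypes. Ccr4 stood at 0.671, 1.45 and 0.808 FPKM in lin28Tg, 2.95, 2.32 and 5.57 in WT and 12.2, 14.1 and 12.1 in let-7Tg. The log2 difference was -1.39 for lin28Tg against WT (SE 0.30, adjusted p = 0.0386), 1.72 for let-7Tg against WT (SE 0.30, adjusted p = 0.0416) and -3.11 between lin28Tg and let-7Tg (adjusted p = 0.000322). Both calls against WT were lost in most fits that left out a library, those of the third genotype included: the lin28Tg call without WT 1 or 3, lin28Tg 1 or 3 or any let-7Tg library (0.0529 to 0.134), the let-7Tg call without WT 1 or 2, lin28Tg 1 or 3 or any let-7Tg library (0.0547 to 0.190). With a pseudocount of 0.1 FPKM the let-7Tg call was also lost (0.06). Cxcr4 stood at 25.2, 6.94 and 10.3 FPKM in lin28Tg, 52.2, 36.0 and 51.0 in WT and 99.7, 72.6 and 69.6 in let-7Tg. The log2 difference was -1.80 between lin28Tg and WT (SE 0.38, adjusted p = 0.0334), -2.54 between lin28Tg and let-7Tg (adjusted p = 0.00197) and 0.74 between let-7Tg and WT (adjusted p = 0.494). The call against WT was lost without any WT library, lin28Tg library 2 or 3 or let-7Tg library 1 or 2 (0.0532 to 0.129).

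Ccr2 ran the other way. It stood at 40.4, 59.0 and 10.6 FPKM in WT CTLs, 110.5, 116.4 and 124.0 in lin28Tg and 6.72, 8.71 and 2.78 in let-7Tg. The 3 genotypes did not overlap, and library 3 was the lowest of both the WT and the let-7Tg libraries. Between lin28Tg and let-7Tg the log2 difference was 4.40 (SE 0.55, adjusted p = 0.000999), the largest of the 8 receptors tested in CTLs. Against WT it was 2.04 for lin28Tg (95% interval 0.78 to 3.29, adjusted p = 0.0784) and -2.36 for let-7Tg (95% interval -3.61 to -1.11, adjusted p = 0.0933), and neither passed. The CTL libraries with the same number deviated together, and with the replicate number as a block both passed (adjusted p = 0.0167 and 0.0239). Without WT library 3 the let-7Tg difference passed without the block too (0.00885). Of the 10 myeloid markers, 6 were under 0.2 FPKM in every lin28Tg CTL library, 6 in every WT and 7 in every let-7Tg one. The list summed to 9.27 to 13.8 FPKM in lin28Tg, 4.16 to 7.02 in WT and 3.80 to 6.80 in let-7Tg. Of the 3 tested, 1 was called higher in lin28Tg than in WT and 3 higher than in let-7Tg, beside 1.96% and 10.7% of all genes. Dendritic cell markers summed to 2.33 to 4.55 FPKM in lin28Tg CTLs, 0.209 to 0.549 in WT and 0.12 to 0.509 in let-7Tg. NK cell markers summed to 64.5 to 163.2 FPKM in lin28Tg CTLs, 9.40 to 42.7 in WT and 2.52 to 5.64 in let-7Tg. Of these 6, 4 (Ncr1, Klra8, Klra4 and Klra9) were under 0.2 FPKM in every CTL library. The part of myeloid, dendritic or NK cells in the result was not tested. Cxcr6 means followed the same order, with 1 overlap between WT and let-7Tg, at 61.4, 65.3 and 56.3 FPKM in lin28Tg, 50.1, 53.3 and 35.2 in WT and 27.4, 35.6 and 16.3 in let-7Tg. Its log2 difference was 1.37 between lin28Tg and let-7Tg (SE 0.24, adjusted p = 0.00409), and that between let-7Tg and WT was -0.89 (adjusted p = 0.135, and 0.0217 with the replicate block). Ccr8 ranged from 0.0875 to 1.63 FPKM in CTLs and Cx3cr1 from 0.0147 to 0.317, with no call. Ccr9 had 1 to 9 reads per library and was not tested.

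**Figure D4:**
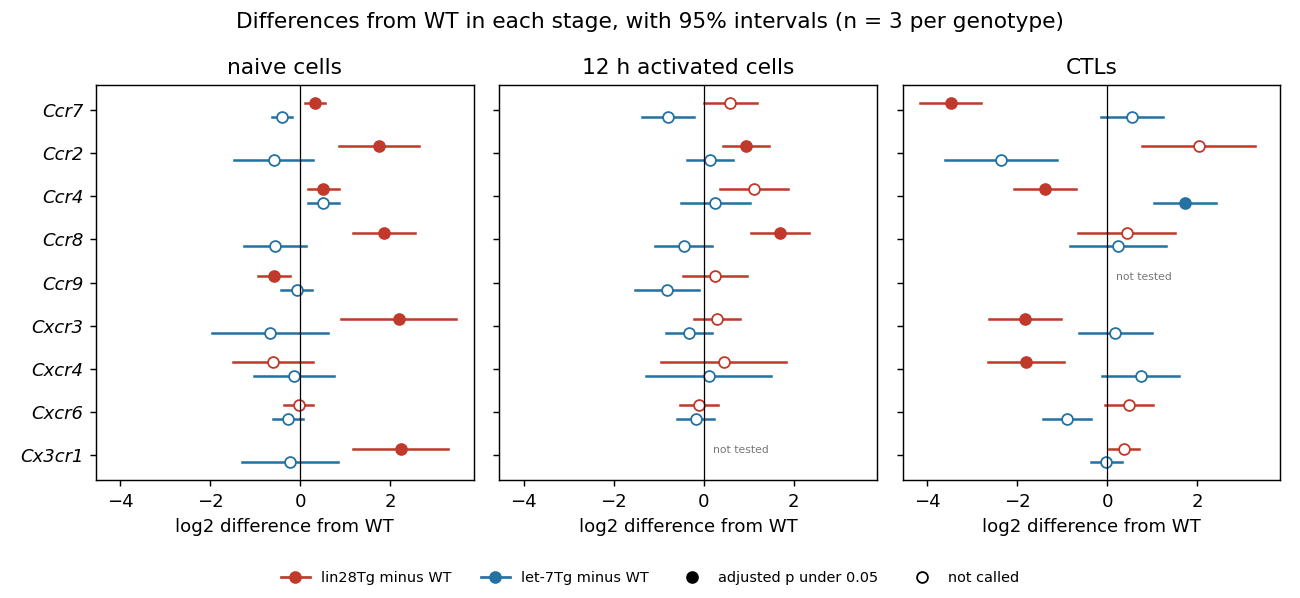
Points are log2 differences of lin28Tg (red) and let-7Tg (blue) from WT in naive cells, 12 h activated cells and CTLs, with 95% intervals, filled where the adjusted p was under 0.05 without the replicate block. Ccr7, Ccr4 and Cxcr3 lie right of 0 in naive lin28Tg cells (0.32, 0.50 and 2.19) and left of 0 in lin28Tg CTLs (-3.48, -1.39 and -1.82).

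Whether a genotype difference changed with stage was tested in 1 model over the 27 libraries, as the difference in CTLs minus that in naive cells. For lin28Tg against WT 4 of the 9 receptors passed, all toward lower values in CTLs, beside 15.0% of the 14450 genes tested (11.2% toward lower values). They were Ccr7 (-3.83, SE 0.37, adjusted p = 3.82e-07), Cxcr3 (-4.03, SE 0.65, adjusted p = 0.000215), Ccr4 (-1.91, SE 0.43, adjusted p = 0.00383) and Cx3cr1 (-1.84, SE 0.45, adjusted p = 0.00764). The naive lin28Tg libraries were high in markers of other cells, and the part of those cells in these changes was not tested. In the fits per stage Ccr7, Cxcr3 and Ccr4 were called in opposite directions in naive cells and CTLs. In the model over 27 libraries the naive differences of Ccr7 and Ccr4 did not pass (0.365 and 0.228), and both naive calls and the CTL call of Ccr4 were lost in several fits that left out a library, as given above. Ccr7 turned between 12 h and CTL: its change was -4.09 there (SE 0.37, adjusted p = 6.47e-07) and 0.26 between naive cells and 12 h (95% interval -0.51 to 1.04). Between 12 h and CTL 2 of 9 passed, Ccr7 and Ccr4, beside 6.3% of genes (with the replicate block Cxcr3 as well, 0.0420), and between naive cells and 12 h 1 of 9, Cx3cr1, beside 7.88%. Cx3cr1 had 0 to 6 reads per library at 12 h and 1 to 23 in CTLs, its fitted changes depend on the pseudocount, and they did not pass with limma-voom on the recovered reads (adjusted p = 0.632 at 12 h and 0.660 in CTLs). For Ccr2, which was higher in lin28Tg cells in the naive stage, the change between naive cells and CTLs was 0.28 (95% interval -1.08 to 1.64, adjusted p = 0.849). For let-7Tg against WT no receptor passed between any pair of stages by limma, beside 0.0761% of genes between naive cells and 12 h, 1.44% between 12 h and CTL and 0.464% between naive cells and CTLs, and the receptors with an adjusted p under 0.10 were Ccr2, Ccr7 and Ccr4 between 12 h and CTL (0.06 to 0.0962). Under an unadjusted 0.05 were 1, 5 and 3 of the 9 receptors between these pairs of stages, and limma-voom called none. With the replicate block Ccr2 passed between 12 h and CTL (0.0276). For lin28Tg against let-7Tg 3, 8 and 8 of 9 passed in the same order of stages, beside 13.3%, 20.0% and 25.1% of genes.

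In WT cells 2 of the abundant receptors were nearly gone at 12 h. Cxcr4 fell from 154.1 ± 42.8 to 2.19 ± 1.73 FPKM (log2 difference -5.75, SE 0.54, adjusted p = 2.9e-09) and Ccr9 from 54.7 ± 13.5 to 2.18 ± 1.20 (-4.18, SE 0.25, adjusted p = 1.16e-12). Ccr2 (-1.75, adjusted p = 0.00188) and Cx3cr1 fell as well, and 4 of the 9 receptors passed, all lower, beside 70.9% of all genes (34.6% lower). With the replicate block Cxcr6 passed as well (-0.41, adjusted p = 0.0373, against 0.0931 without it). Markers of other cells were lower at 12 h in the same comparison, with 7 of 10 myeloid, 5 of 6 dendritic cell and 6 of 6 NK cell markers called lower (median log2 differences -1.37, -1.57 and -1.85), and their part in the fall of Ccr2 and Cx3cr1 was not tested. Cxcr4 then returned, to 46.4 ± 8.98 FPKM in CTLs (4.16, SE 0.54, adjusted p = 5.66e-07), still under its naive level (-1.59, adjusted p = 0.0139; 0.0575 without WT naive library 3 and 0.0537 without WT CTL library 2). Ccr9 went on down to 0.0987 ± 0.0494 FPKM. Between 12 h and CTL 5 of 9 receptors passed in WT cells, beside 67.5% of genes. Ccr2 rose from 0.695 ± 0.150 FPKM at 12 h to 36.6 ± 24.4 in CTLs (4.56, SE 0.46, adjusted p = 1.37e-08). Ccr7 was held at 12 h (log2 difference from naive 0.50, 95% interval -0.05 to 1.05, adjusted p = 0.0948) and fell by CTL differentiation (-2.55 from naive, SE 0.26, adjusted p = 1.98e-08). Ccr4, Ccr8, Cxcr3 and Cxcr6 did not pass between naive cells and CTLs, where 5 of 9 receptors and 65.1% of all genes did. Of those 5, Cx3cr1 (-0.92, adjusted p = 0.0156) lost its call without WT naive library 1 (0.0839).

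The fall of Cxcr4 and Ccr9 at 12 h was called in all 3 genotypes, at -4.70 and -3.37 in lin28Tg cells and -5.49 and -4.91 in let-7Tg cells. Between naive cells and 12 h 8 of 9 receptors passed in lin28Tg cells and 3 of 9 in let-7Tg cells (with the replicate block Ccr2 as well, 0.0251), beside 73.7% and 69.3% of genes, and between 12 h and CTL 8 and 5 of 9, beside 66.4% and 67.1%. In lin28Tg cells all 9 receptors were called between naive cells and CTLs, Ccr2 and Cxcr6 higher and the other 7 lower, beside 68.1% of all genes (34.6% higher and 33.5% lower). Markers of other cells fell there too. Called lower were 10 of 10 myeloid, 6 of 6 dendritic cell and 5 of 6 NK cell markers, with 1 NK cell marker higher (median log2 differences -3.70, -3.01 and -3.82). The part of those cells in the receptor falls was not tested. Ccr7 fell by 6.38 on the log2 scale in lin28Tg cells (SE 0.26, adjusted p = 1.25e-14) and by 1.56 in let-7Tg cells (adjusted p = 2.21e-05), and Cxcr3 fell by 3.85 in lin28Tg cells (adjusted p = 1.67e-07), whereas its log2 difference in let-7Tg cells was 1.06 (adjusted p = 0.0505). Ccr4 fell by 1.71 in lin28Tg cells (adjusted p = 3.48e-05) and rose by 1.45 in let-7Tg cells (adjusted p = 0.000281). Ccr2 rose by 3.08 in lin28Tg cells (adjusted p = 4.18e-06), and its log2 difference was 1.05 in let-7Tg cells (adjusted p = 0.0548). In let-7Tg cells 4 of 9 receptors passed between naive cells and CTLs, Ccr4 and Ccr8 higher and Ccr7 and Ccr9 lower, beside 62.2% of genes (32.3% higher and 29.9% lower). With the replicate block 7 of 9 passed there, with Ccr2 (0.0246), Cxcr3 (0.0409) and Cxcr6 (0.0229) added. Ccr8 lost that call without let-7Tg naive library 2 or 3 or let-7Tg CTL library 1 or 2 (0.0768 to 0.182), and its log2 difference of 0.99 was 1.59 without let-7Tg CTL library 3. The calls of Ccr8 and Cxcr6 in lin28Tg cells between these stages were lost without lin28Tg naive library 2 (0.0848) and without lin28Tg CTL library 2 (0.0543).

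Among 13 other chemokine receptors, 8 were tested in naive cells and 6 of these were higher in lin28Tg than in WT, beside 19.4% of all genes. Ccr6 stood at 10.8 ± 2.33 FPKM against 0.977 ± 0.888 (log2 difference 3.04, adjusted p = 0.000478). Cxcr2, Ccr3, Xcr1, Ccr1 and Ccr10 were the others, each at naive group means of at most 3.75 FPKM, and these receptors belong in part to myeloid cells, whose markers were high in the same libraries. The part of those cells in the result was not tested. At 12 h Ccr6 was the 1 of 4 tested that passed between lin28Tg and WT, beside 8.32% of all genes (5.86% higher). It stood at 2.20 ± 1.03 FPKM in lin28Tg and 0.177 ± 0.0676 in WT (log2 difference 1.92, adjusted p = 0.00591). In CTLs none of the 4 tested passed between lin28Tg and WT by limma, with 2 (Cxcr5 and Xcr1) under an unadjusted 0.05. Xcr1 was higher (1.23, adjusted p = 0.0142) and Cxcr5 lower (-1.09, adjusted p = 0.0217) in lin28Tg than in let-7Tg CTLs. Ccrl2 stayed between 0.503 and 1.82 FPKM in all group means.

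Of 16 genes for ligands of the 9 receptors, 9 were tested in naive cells and 8 were higher in lin28Tg than in WT and none lower, beside 19.4% and 14.5% of all genes. The 4 with the smallest adjusted p against WT were Ccl22 (147.6 ± 34.5 against 48.9 ± 6.64 FPKM), Cxcl16 (31.8 ± 7.29 against 11.0 ± 2.23), Ccl8 (28.2 ± 24.1 against 0.355 ± 0.208) and Ccl17 (13.7 ± 4.08 against 3.87 ± 1.83), ligands of CCR4, CXCR6, CCR8 and CCR4. These chemokines are made by dendritic cells and macrophages among others, and the markers of those cells were high in the same libraries. The part of those cells in the ligand levels was not tested. At 12 h Ccl1, the ligand of CCR8, was higher in lin28Tg than in WT (18.9 ± 8.17 against 2.62 ± 1.85 FPKM, adjusted p = 0.0223). It was 1 of 8 tested, beside 8.32% of all genes called (5.86% higher). In CTLs 1 of the 16 ligand genes was expressed enough to test, and it did not pass between any pair of genotypes by limma, with 0 under an unadjusted 0.05.

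Genes that carry the receptors' signal were called at about the rate of all genes in naive cells. Of 20 signaling genes (G protein subunits, phospholipase C, PI3Kγ, Rac, Rap and their partners), all tested, 4 were higher and 4 lower in lin28Tg than in WT naive cells, beside 19.4% and 14.5% of all genes, with a median log2 difference of -0.00 beside -0.03 over all genes. Gng2, a G protein γ subunit, stood out at 100.4 ± 2.31 against 50.6 ± 7.59 FPKM (0.94, adjusted p = 0.000351). At 12 h Pik3r5, the regulatory subunit of PI3Kγ, was higher (68.2 ± 8.98 against 39.8 ± 3.25 FPKM, adjusted p = 0.00996) and Plcb2 and Rap1a were lower. These were 1 and 2 of the 20, beside 8.32% of all genes called. In CTLs none of the 20 passed between lin28Tg and WT by limma, beside 4.18% of all genes, with 5 under an unadjusted 0.05. Between lin28Tg and let-7Tg 3 of the 20 (Gng2, Rac2 and Gnb1) passed, beside 21.3% of all genes. Of 14 genes for receptor kinases, arrestins and RGS proteins, which end receptor signaling, 5 were higher and 3 lower in naive lin28Tg cells than in WT, beside the same 19.4% and 14.5%, with Rgs14 (70.7 ± 1.04 against 104.4 ± 8.38 FPKM) and Grk6 (226.9 ± 7.45 against 303.6 ± 8.88) lower and Grk3 (10.1 ± 2.23 against 2.71 ± 0.543) and Rgs1 (11.4 ± 1.62 against 3.10 ± 1.23) higher. At 12 h 1 of 13 passed, Rgs10, which was lower, beside 8.32% of all genes called. In CTLs none of the 14 passed between lin28Tg and WT by limma, with 3 under an unadjusted 0.05.

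The genes whose level over the 9 group means was most like that of each receptor were found by Pearson correlation of log2(FPKM + 0.5) among 9486 genes. The 9 means share libraries and stages, so the coefficients only describe. Ccr7 was most like Btla (0.972), Pmepa1 (0.971) and Adgrl1 (0.967), and Ccr2 most like Tmem40 (0.990), Gzma (0.983), which encodes the protease granzyme A, and Myo15b (0.981). Ccr9 was most like Slfn5, Mfng and Oasl1 (0.992 to 0.993), and Cxcr4 most like Taok2, Ctdsp1 and Ubn1 (0.996 to 0.997). Cx3cr1 was most like Ak8, Mef2c and Rubcnl (0.993 to 0.996). Coefficients were lower for Cxcr6 (Cdh1, Fmnl3 and Gm16184, 0.941 to 0.953), Ccr8 (Sdc1, Tmem158 and Acvr1, 0.906 to 0.949), Cxcr3 (Hmgn3, Xlr and Dram1, 0.906 to 0.943) and Ccr4 (Ptger4, Gucy1a1 and Lpcat1, 0.849 to 0.853).

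In the genome 6 of the 9 receptors lie on chromosome 9 (GRCm38, GENCODE M21). Cx3cr1 and Ccr8 are 22.2 kb apart and Ccr9 and Cxcr6 22.1 kb. With Ccr2 these lie in chr9:119901616-124113557. Ccr7 lies at chr11:99144196-99155077, Cxcr4 at chr1:128588199-128592293 and Cxcr3 at chrX:101731535-101734269. Of these neighbours, Cx3cr1 and Ccr8 both had their highest group mean in naive lin28Tg cells. Ccr9 was nearly absent from CTLs, at no more than 0.156 FPKM, where Cxcr6 stood at 16.3 to 65.3. The annotated spans of Ccr9, Cxcr6 and Cx3cr1 overlap 6, 1 and 9 other genes, and how reads in shared stretches were assigned is not given in the sources used here.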

How the data were processed

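RNA of 27 samples, 3 for each of 3 genotypes at 3 stages, was sequenced, and the deposited tables, 1 per stage, hold FPKM values per gene and library. Per the labels the authors used Bowtie2 2.0.6, TopHat2 2.0.9, HTSeq 0.6.1 and DESeq2 with GRCm38/mm10. The authors' columns of mean read counts, fold changes, p-values, adjusted p-values, their ranks and heatmap clusters were not used, and 0 columns of per-sample values were left unmapped. FPKM values were whole multiples of 1 read for 100.0% of the 462839 values above 0 (within 0.002 reads), which gave the depth of each library. Genes were kept where 3 or more libraries held FPKM worth 10 reads in a library of median depth. FPKM were scaled by trimmed means of log ratios (factors 0.874 to 1.15 over the 27 libraries), and log2(FPKM + 0.5) was fitted with limma 3.58.1 in R 4.3.3, per stage for genotypes and over all 27 libraries for stages and their differences. Tests are two-sided, with Benjamini-Hochberg adjustment over all genes tested, a threshold of 0.05 and 95% intervals. A fold change on this scale understates that of low genes. The fits were tested on simulated data. Samples were grouped by their labels. Some results on other chemokine receptors are not reported here. The study calls the replicates biological. Whether each came from a separate mouse is not given in the sources used here, and p-values measure the spread between these samples.

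CTL libraries with the same replicate number deviated together (r over genes 0.535 to 0.717 for let-7Tg with WT, 0.285 to 0.37 for lin28Tg with WT and 0.244 to 0.514 for lin28Tg with let-7Tg). At 12 h this held for let-7Tg with WT (0.241 to 0.551). In naive cells r for let-7Tg with WT was 0.0599 to 0.471 for the same number, overlapping that for different numbers (-0.402 to 0.29). It did not hold for lin28Tg with either other genotype at 12 h or in naive cells. The receptors and gene lists were chosen with earlier results of these data known. All 9 receptors are named; from the lists at most 4 genes per stage with the smallest adjusted p, and other receptors with a group mean of at least 1 FPKM; and the 3 genes most like each receptor. Alternatives were other pseudocounts, scalings, filters, sample sets, a replicate block, limma-voom and leaving out each library.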

Additional observations from a re-analysis of the deposited data

Results flagged for a closer look

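The difference between genotypes changed with the stage, by the test of that change in the model over 27 libraries (log2 scale, limma, adjusted p under 0.05), in 26 of 81 combinations of receptor, genotypes and stages. Of all genes 0.0761% to 25.1% passed, depending on the genotypes and stages compared. No receptor was listed for let-7Tg against WT. The part of other cells, whose markers were high in naive lin28Tg libraries, was not tested.

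For lin28Tg against WT the change from 12 h to CTL was -4.09 for Ccr7 and -2.53 for Ccr4. From naive cells to CTLs it was -3.83 for Ccr7, -1.91 for Ccr4, -4.03 for Cxcr3 and -1.84 for Cx3cr1, and from naive cells to 12 h it was -2.10 for Cx3cr1.

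For lin28Tg against let-7Tg Ccr7 changed by -5.45 from 12 h to CTL (adjusted p = 2.15e-09) and by -4.82 from naive cells to CTLs (adjusted p = 1e-08). Ccr4 changed by -4.00 and -3.16 over the same stages, Cxcr3 by -2.65 and -4.92, Cxcr4 by -2.91 and -2.12 and Ccr8 by -2.04 and -2.17. Ccr2 changed the other way, by 3.54 and 2.03, and Cxcr6 by 1.26 and 1.08. Ccr9 changed by 1.55 from naive cells to 12 h and by -1.21 from 12 h to CTL, where it had 1 to 9 reads per library. Cxcr3 and Cx3cr1 changed by -2.26 and -2.24 from naive cells to 12 h, and Cx3cr1 by -2.05 from naive cells to CTLs.

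Several of these calls between lin28Tg and let-7Tg rested on single libraries. That of Cxcr4 from naive cells to CTLs had an adjusted p of 0.0464, and 20 of 27 removals of a library, WT ones included, took it to 0.0503 to 0.154. That of Ccr2 over the same stages was lost without lin28Tg naive library 1 or 3, let-7Tg naive library 1 or let-7Tg CTL library 3 (0.052 to 0.076). The change of Cxcr3 from naive cells to 12 h was lost without let-7Tg naive library 2, lin28Tg 12 h library 3 or let-7Tg 12 h library 2 (0.0609 to 0.0767). From 12 h to CTL, Ccr9 lost its call without lin28Tg or let-7Tg 12 h library 3 (0.0541 and 0.0542), and Ccr8 without let-7Tg CTL library 1 (0.0506). With limma-voom on the recovered reads Ccr9, Ccr8 and Cxcr4 did not pass over these stages (adjusted p = 0.167, 0.0862 and 0.0552). Nor did Ccr2 from naive cells to CTLs (0.0883) or any of the Cx3cr1 changes (0.487 to 0.74).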

How the results depend on the processing

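No receptor changed direction from a called difference under any alternative. Of 27 naive, 24 12 h and 24 CTL differences between genotypes, 13, 6 and 11 were called. The shares of all genes called in the same comparisons ran from 0.739% to 44.3%, 2.94% to 30.1% and 0.945% to 21.3%. Without the filter on low values the counts were 10, 3 and 7, with more genes adjusted over, and with only the 6 libraries compared 7 in CTLs, with fewer samples. The fit over 27 libraries gave 9, 6 and 14. Leaving out each library gave 9 to 13, 3 to 7 and 7 to 9. For stages 51 of 81 were called (49 to 56 without 1 library), and for changes between stages 26 of 81 (24 to 30 without 1 library, 18 with limma-voom). Of all genes 62.2% to 73.7% were called between stages and 0.0761% to 25.1% for changes between stages, depending on the comparison. With the replicate block the counts were 13, 6, 14, 56 and 28, and no call was lost. The block ties libraries of the same number in every fit, and across stages in the fit over 27 libraries. Within a genotype, libraries of different stages did not deviate together by number. Their r was -0.201 to 0.173 for the same number and -0.226 to 0.217 for different numbers. The stage calls and changes between stages added by the block therefore rest partly on a pairing not seen in the data. Depth limits Cx3cr1 at 12 h and Ccr9 in CTLs, with at most 6 and 9 reads per library. The calls that the genotype differences of Cx3cr1 changed between stages were lost with limma-voom on recovered reads (adjusted p = 0.487 to 0.74). For lin28Tg against let-7Tg, limma-voom also lost those of Ccr9 (0.167), Ccr8 (0.0862) and Cxcr4 (0.0552) from 12 h to CTL. It lost that of Ccr2 from naive cells to CTLs as well (0.0883). The cause was not tested.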
